A study of Mus musculus with 16 samples.

Results

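The C/EBP family loci are the stretches of mouse genome around Cebpa, Cebpb and Cebpd, the genes of the transcription factors C/EBPα, C/EBPβ and C/EBPδ. Member peaks were those of a deposited PPARγ peak list and a deposited C/EBPα peak list whose centre lay in chr7:35850000-35960000 for Cebpa, chr2:167464000-167600000 for Cebpb or chr16:15830000-15940000 for Cebpd (build mm9). The rule used positions only. It found 34 of 30588 PPARγ peaks and 31 of 30519 C/EBPα peaks, together 65 of 61107. Cebpa held 11 PPARγ and 9 C/EBPα peaks, Cebpb 19 and 19, and Cebpd 4 and 3.

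Chromatin immunoprecipitation with sequencing, which counts DNA fragments bound by a protein, was done in 3T3-L1 adipocytes. This established mouse line of preadipocytes is turned into fat cells by a hormone cocktail. At day 7 the cultures received 1 µM rosiglitazone in 0.1% DMSO, or 0.1% DMSO alone as vehicle, and chromatin was taken after 1 h. The columns used here hold PPARγ, C/EBPα, MED1 and CBP, each with 1 rosiglitazone and 1 DMSO column. The labels name 2 PPARγ samples per treatment and 1 sample per treatment of the other factors. Libraries of RNA polymerase II and of input chromatin also appear in the labels and were not used here.

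C/EBPβ and C/EBPδ are induced early in fat cell differentiation and switch on the genes of PPARγ and C/EBPα, which then keep each other active in the mature adipocyte. PPARγ is the nuclear receptor that rosiglitazone binds and activates. It binds DNA together with its partner RXR. MED1 is the Mediator subunit that contacts liganded nuclear receptors, and many activators recruit CBP, an enzyme that acetylates histones. The Cebpa promoter of the mouse is known to be bound by C/EBPα itself, and Cebpb is known as a gene that cyclic AMP turns on through CREB.

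The promoters of Cebpa and Cebpb are shown because they are the regulatory sequence nearest the genes that name these loci. They come from RefSeq on GRCm38.p6, whose coordinates cannot be set beside the mm9 positions of the peaks. Each is the 250 bases before the annotated start, on the plus strand, at chr7:35119043-35119292 for Cebpa and chr2:167688665-167688914 for Cebpb. Capitals mark TTGCG, the core of many C/EBP sites, in Cebpa and TGACG, the core of CREB sites, or its reverse complement in Cebpb.
Cebpa: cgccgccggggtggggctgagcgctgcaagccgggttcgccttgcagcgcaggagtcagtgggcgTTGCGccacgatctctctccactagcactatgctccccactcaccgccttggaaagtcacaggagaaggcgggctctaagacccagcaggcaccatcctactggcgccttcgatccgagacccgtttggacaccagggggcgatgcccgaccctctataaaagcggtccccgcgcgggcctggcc
Cebpb: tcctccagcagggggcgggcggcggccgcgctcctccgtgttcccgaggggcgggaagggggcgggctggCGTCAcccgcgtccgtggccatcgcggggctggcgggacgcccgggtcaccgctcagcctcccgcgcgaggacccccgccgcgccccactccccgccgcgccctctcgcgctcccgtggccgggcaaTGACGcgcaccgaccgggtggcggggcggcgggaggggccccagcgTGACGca
TTGCG occurred at -185 from the start of Cebpa and not in the 250 bases of Cebpb. TGACG occurred at -180, -53 and -7 of Cebpb and not in those of Cebpa. The C/EBP palindrome TTGCNNAA and the PPAR core AGGTCA were in neither. Both strands were searched. Over 27025 promoters of the same length, TTGCG was found in 14.6%, TGACG in 17.9%, TTGCNNAA in 9.55% and AGGTCA in 13.8%. These matches are letters in a window and not measured binding. GC content was 66.4% for Cebpa and 81.6% for Cebpb. In RefSeq's gene order the nearest coding genes were Gm45095 and Slc7a10 beside Cebpa, Tmem189 and Ptpn1 beside Cebpb, and Mzt2 and Spidr beside Cebpd. The windows may therefore hold peaks of those genes, and no mm9 annotation was used to assign a peak to a gene.

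Values are normalised tag signals as the authors deposited them, called units here. A tag is 1 mapped read, and 1 tag was worth 0.831 units for PPARγ in rosiglitazone and 0.879 in DMSO, 1.27 and 2.21 for C/EBPα, 7.65 and 3.49 for MED1, and 6.06 and 2.21 for CBP. If the scale is 10 M tags per library, a usual setting that no header states, the depths were 12.0 M in rosiglitazone and 11.4 M in DMSO for PPARγ, 7.85 and 4.53 M for C/EBPα, 1.31 and 2.86 M for MED1, and 1.65 and 4.52 M for CBP. The shallow MED1 and CBP libraries with rosiglitazone limited what single peaks could show. A ratio below is rosiglitazone over DMSO on the deposited scale, followed in brackets by its exact 95% Clopper-Pearson interval. With 1 column per treatment there was no replicate check and no test of the treatment. The intervals cover counting error of these libraries only, and tags without molecular identifiers are not independent molecules.

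Binding was dense at Cebpa and Cebpb. The PPARγ list had 10.0 peaks per 100 kb at Cebpa, 14.0 at Cebpb and 3.64 at Cebpd, against 1.16 over the list. Of windows of the same length laid end to end along the genome, 0.689%, 0.0361% and 12.6% held as many PPARγ peaks as Cebpa, Cebpb and Cebpd. The C/EBPα list had 8.18, 14.0 and 2.73 peaks per 100 kb at the same loci, against 1.16 over the list. As many C/EBPα peaks were found in 1.29%, 0.0103% and 19.1% of windows. Neighbouring PPARγ peaks lay a median of 5.72 kb apart at Cebpa, 6.22 kb at Cebpb and 23.2 kb at Cebpd.

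Many PPARγ and C/EBPα peaks coincided, and the share was largest at Cebpa, although differences in it between the loci were not tested. At Cebpa 8 of 11 PPARγ peaks (72.7%) and 8 of 9 C/EBPα peaks (88.9%) shared at least 1 bp with a peak of the other list. At Cebpb these were 9 of 19 in each list (47.4%), and at Cebpd 1 of 4 and 1 of 3. Over the 3 loci 18 of 34 PPARγ peaks (52.9%) were shared, against 36.1% of the whole list. Of the C/EBPα peaks 18 of 31 (58.1%) were shared, against 36.2% of the list. Centres of shared peaks lay a median of 29.5 bp apart at Cebpa and 38.0 bp at Cebpb.

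**Figure D1:**
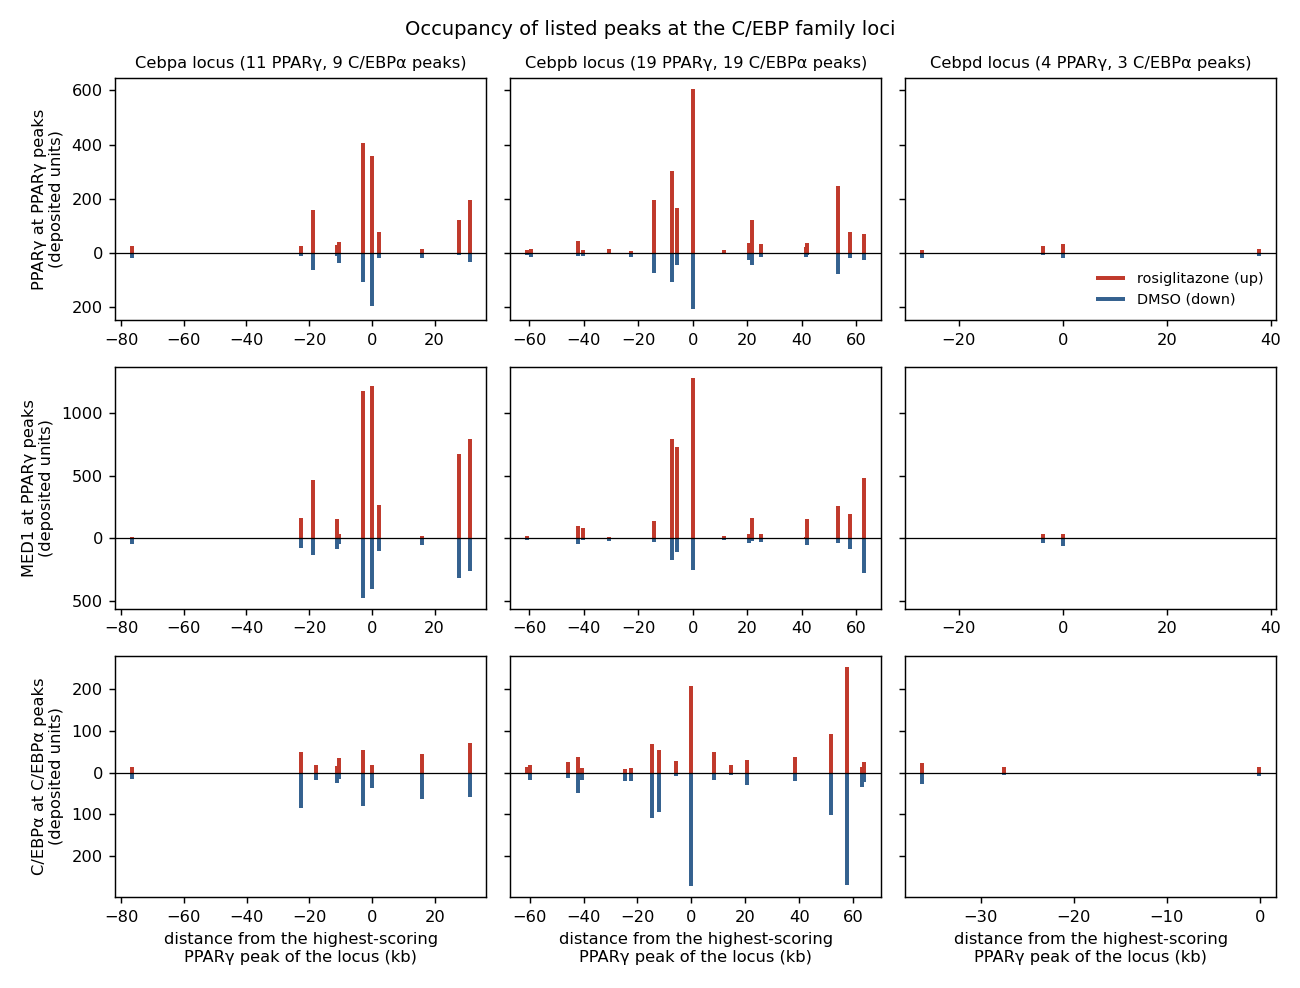
Deposited occupancy in units (vertical axes) of PPARγ and MED1 at PPARγ peaks and of C/EBPα at C/EBPα peaks, against the distance in kb from the highest-scoring PPARγ peak of each locus; rosiglitazone is drawn upward and DMSO downward. PPARγ and MED1 bars at Cebpa and Cebpb are mostly taller upward, the tallest PPARγ bar being 604 units in rosiglitazone and 206 in DMSO at Cebpb, while C/EBPα bars are of similar size on both sides.

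Several peaks at Cebpa and Cebpb were among the strongest of the PPARγ list, and others were weak. In the highest 10% by score were 7 of the 11 Cebpa, 9 of the 19 Cebpb and 0 of the 4 Cebpd peaks, and the lowest Cebpb peak had rank 28007. By the authors' peak score 9 of the 34 members (26.5%) were in the highest 1% of the list, 4 at Cebpa, 5 at Cebpb and 0 at Cebpd. For MED1 at the same peaks the highest 1% held 11 members (32.4%) in rosiglitazone and 8 (23.5%) in DMSO. For PPARγ it held 9 (26.5%) in rosiglitazone and 5 (14.7%) in DMSO. CBP placed 2 members (5.88%) there in rosiglitazone and 3 (8.82%) in DMSO, and C/EBPα 2 in each. These ranks describe sites within 1 list. The tags were concentrated in few sites, since the 3 strongest PPARγ peaks held 65.9% of the PPARγ tags of the Cebpa peaks in rosiglitazone and 70.4% in DMSO. At Cebpb the 3 strongest held 56.8% in rosiglitazone and 54.3% in DMSO.

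**Figure D2:**
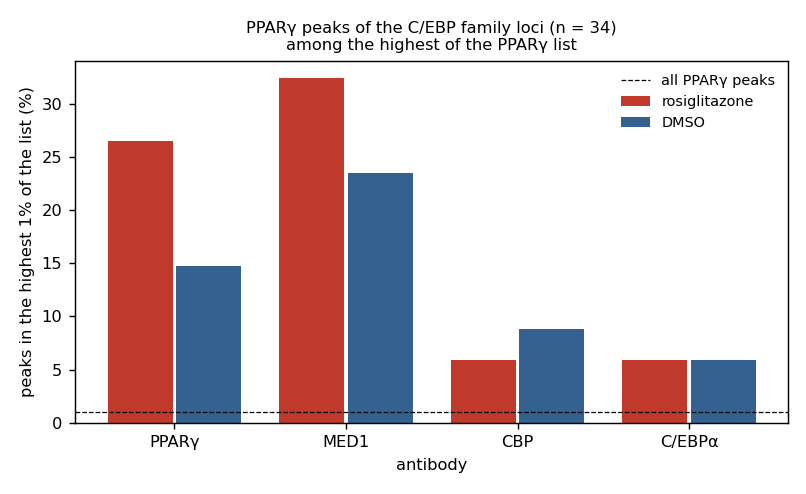
Share in percent of the 34 PPARγ peaks of the C/EBP family loci (vertical axis) that fell in the highest 1% of the PPARγ list for each antibody (horizontal axis), in rosiglitazone and in DMSO; the dashed line is the share of all peaks. MED1 reached 32.4% in rosiglitazone and 23.5% in DMSO.

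Summed over peaks, PPARγ occupancy was higher with rosiglitazone at Cebpa and Cebpb by nearly the same factor. Summed over its 11 PPARγ peaks Cebpa had 1459 units in rosiglitazone and 516 in DMSO, a ratio of 2.83 (2.57 to 3.11). Cebpb had 2037 units in rosiglitazone and 718 in DMSO over 19 peaks, a ratio of 2.84 (2.62 to 3.08). The Cebpb ratio divided by the Cebpa ratio was 1.00, with an exact conditional 95% interval of 0.887 to 1.14. The likeness depended on the weighting. Without the peak with most tags the ratios were 3.42 at Cebpa and 2.80 at Cebpb. As means of log2 ratios per peak they were 2.71 at Cebpa and 2.32 at Cebpb. Cebpd had 86.5 units in rosiglitazone and 51.0 in DMSO over 4 peaks, a ratio of 1.70 (1.22 to 2.38). The Cebpd ratio was 0.600 times that of Cebpa (0.425 to 0.854). That difference depended on the peak list, since over the 3 C/EBPα peaks of Cebpd PPARγ had a ratio of 2.57 (1.53 to 4.46), 1.02 times that of Cebpa (0.600 to 1.78).

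The other 30554 PPARγ peaks of the list had a summed ratio of 1.52. Against them the PPARγ ratio was 1.86 times as high at Cebpa (1.69 to 2.04), 1.87 times at Cebpb (1.72 to 2.02) and 1.11 times at Cebpd (0.800 to 1.56). Only the Cebpd interval includes 1. Score and ratio were related in the list, the summed ratio being 1.74 over the 3073 other peaks in the highest 10% by score. The 16 members in that 10% had a ratio of 2.96, and the members' ratio was 1.70 times as high (1.60 to 1.82). Of these 16, 9 were in the highest 1% of the list by score. Here and in later comparisons, scores were not matched within the 10%.

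By peak, 21 of 34 members were at least 2-fold higher with rosiglitazone on the log2(units + 1) scale, against 30.0% of all PPARγ peaks. They were 7 of 11 at Cebpa, 13 of 19 at Cebpb and 1 of 4 at Cebpd. A ratio at least 2-fold lower was found at 1 member, against 4.43% of all peaks. In the highest 10% by score 13 of 16 members were at least 2-fold higher, against 40.6% of all such peaks. An exact binomial test of the tags, adjusted over the whole list by Benjamini-Hochberg at 0.05, called 20 of 34 members higher, against 20.1% of the list. The same test set against the list's own ratio called 14 of 34 higher, against 7.10% of the list. These tests compare the pair of libraries and not the treatments.

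At Cebpa the strongest PPARγ peak by score was chr7:35926552-35926738, at rank 15 of the list. It held 360.0 units in rosiglitazone and 195 in DMSO, a ratio of 1.84 (1.56 to 2.18). At rank 23, chr7:35923645-35923831 had 405 units in rosiglitazone and 107 in DMSO, a ratio of 3.77 (3.09 to 4.64). The order of these neighbours thus differed between the libraries, the lower-scoring site being the higher in rosiglitazone. Further along, chr7:35957742-35957928 had 196 units in rosiglitazone and 32.5 in DMSO (ratio 6.03), and chr7:35907768-35907954 had 159.6 in rosiglitazone and 60.7 in DMSO (ratio 2.63). PPARγ was at or below its DMSO level at 1 of the 11 Cebpa peaks, chr7:35942499-35942685, with 15.0 units in rosiglitazone and 18.5 in DMSO (0.810, 0.407 to 1.60).

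Among the 34 PPARγ peaks of the family the largest PPARγ ratio was at chr7:35954368-35954554 in the Cebpa window. This site had 121 units in rosiglitazone and 6.16 in DMSO, from 146 and 7 tags, a ratio of 19.7 (9.33 to 49.9). Its PPARγ rank in the list was 359 in rosiglitazone and 23347 in DMSO. MED1 and CBP were nonetheless high there in both libraries. MED1 held 673 units in rosiglitazone and 315 in DMSO, ranks 24 and 25 of the PPARγ list. CBP held 109 units in rosiglitazone and 97.2 in DMSO, a ratio of 1.12 (0.610 to 1.98). C/EBPα had 15 tags in rosiglitazone and 0 in DMSO, at least 2.88-fold higher against 3 tags in the DMSO library, with an exact lower bound of 2.07. No C/EBPα peak was listed at this site.

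The strongest PPARγ peak of the family was chr2:167527747-167527933 in the Cebpb window, at rank 2 of the list by score. PPARγ held 604 units there in rosiglitazone and 206 in DMSO, a ratio of 2.94 (2.53 to 3.42). The next 4 by score had ratios from 2.68 to 3.96. Peak chr2:167519916-167520102 had 304 units in rosiglitazone and 106 in DMSO (2.88), and chr2:167581093-167581279 had 249 in rosiglitazone and 78.3 in DMSO (3.18). Peak chr2:167513304-167513490 had 195 units in rosiglitazone and 73.0 in DMSO (2.68), and chr2:167521925-167522111 had 167 in rosiglitazone and 42.2 in DMSO (3.96). The extremes at Cebpb came from weak peaks. The highest ratio, 8.51 (2.04 to 75.6) at chr2:167496862-167497048, rested on 18 tags in rosiglitazone and 2 in DMSO. The lowest, 0.420 (0.158 to 1.02) at chr2:167505205-167505391, rested on 8 tags in rosiglitazone and 18 in DMSO.

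Cebpd had 4 weak PPARγ peaks, none in the highest 10% of the list by score. The strongest, chr16:15890829-15891015, held 34.1 units in rosiglitazone and 16.7 in DMSO, a ratio of 2.04 (1.16 to 3.72). The peak with the highest ratio, chr16:15886958-15887144, had 24.9 units in rosiglitazone and 6.16 in DMSO (4.05, 1.74 to 10.9). The remaining sites did not differ beyond counting error. Peak chr16:15863793-15863979 had 13.3 units in rosiglitazone and 16.7 in DMSO, and chr16:15928592-15928778 had 14.1 in rosiglitazone and 11.4 in DMSO.

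MED1 was higher with rosiglitazone at Cebpa and more so at Cebpb. Summed over the PPARγ peaks, Cebpb held 4515 units in rosiglitazone and 1209 in DMSO, a ratio of 3.73 (3.26 to 4.28). Cebpa held 4974 units in rosiglitazone and 1975 in DMSO, a ratio of 2.52 (2.25 to 2.82). The Cebpb ratio was 1.48 times that of Cebpa (1.24 to 1.77), and 1.27 times over the C/EBPα peaks of both loci (1.05 to 1.54). Cebpd held 10 MED1 tags in rosiglitazone and 28 in DMSO, a ratio of 0.782 (0.339 to 1.66), which was 0.209 times that of Cebpb (0.0898 to 0.452). Over the 3 C/EBPα peaks of Cebpd the MED1 ratio was on the other side of 1, at 1.52 (0.752 to 3.01), and 0.500 times that of Cebpb (0.243 to 1.01), so the difference did not hold beyond counting error there. MED1 had no tag in either library at 2 of the 4 Cebpd peaks.

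The other peaks of the list had a MED1 ratio of 1.62. The ratio was 2.31 times as high at Cebpb (2.02 to 2.64) and 1.56 times at Cebpa (1.39 to 1.75), while at Cebpd it was 0.483 times that of the rest (0.209 to 1.03). Among peaks in the highest 10% by score, the ratio over the members was 1.77 times that of the other peaks (1.61 to 1.94). At least 2-fold higher MED1 was found at 18 of 34 members, against 29.8% of all PPARγ peaks, and at least 2-fold lower at 4, against 22.5%. The 4 lower members held 1 to 18 MED1 tags in both libraries together. Among the 19 members with at least 20 MED1 tags, 16 were higher, against 45.1% of such peaks, and 0 were lower, against 8.14%. In the highest 10% by score 13 of 16 members were higher, against 42.0%. The library test called 14 of 34 members higher, against 3.18% of the list, and 9 of 34 above the list's own ratio, against 0.533%. Averaging log2 ratios over peaks, which gives weak peaks equal weight, lowered the MED1 ratio to 2.08 at Cebpb and 1.57 at Cebpa.

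**Figure D3:**
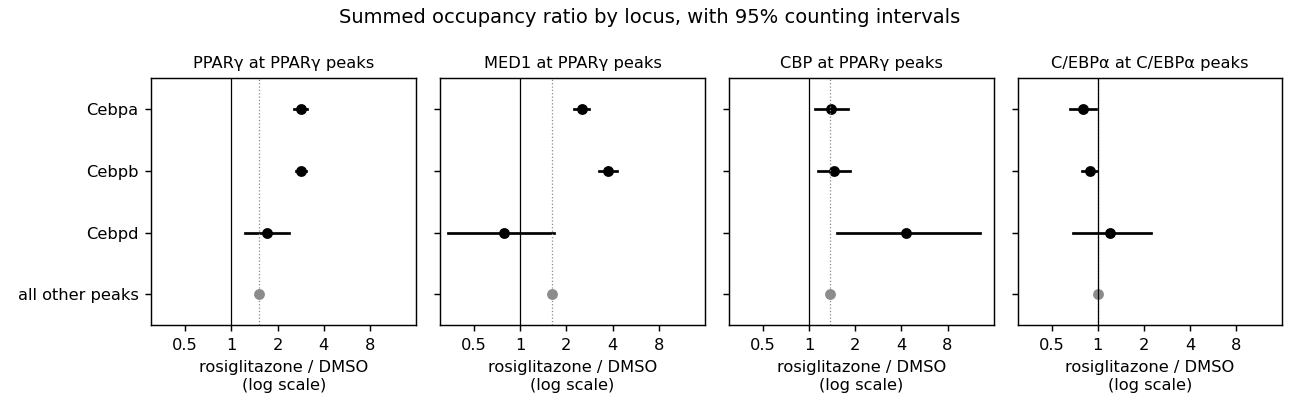
Ratio of rosiglitazone to DMSO summed over the member peaks of each locus (log horizontal axes) for 4 factors, with exact 95% intervals covering counting error only; grey points and dotted lines are all other peaks of the list. PPARγ is at 2.83 for Cebpa and 2.84 for Cebpb, MED1 at 2.52 and 3.73, and C/EBPα lies below 1 at both.

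By MED1, 5 of the 19 Cebpb peaks were in the highest 1% of the PPARγ list in rosiglitazone and 3 in DMSO. In rosiglitazone chr2:167527747-167527933 ranked 3 by MED1, with 1278 units in rosiglitazone and 255 in DMSO, a ratio of 5.01 (3.78 to 6.69). Beside it chr2:167521925-167522111 had 727 units in rosiglitazone and 105 in DMSO (6.93, 4.56 to 10.8), and chr2:167519916-167520102 had 796 in rosiglitazone and 175 in DMSO (4.55, 3.22 to 6.52). The highest MED1 ratio was at chr2:167549550-167549736, with 161 units in rosiglitazone and 21.0 in DMSO (7.66, 2.99 to 23.2). MED1 at chr2:167581093-167581279 was of like ratio, with 260.2 units in rosiglitazone and 35.0 in DMSO (7.44). The lowest among well-covered Cebpb peaks was at chr2:167590742-167590928, with 482 units in rosiglitazone and 276 in DMSO (1.75, 1.23 to 2.46). At that site CBP held 127 units in rosiglitazone and 128 in DMSO, and C/EBPα 8.92 in rosiglitazone and 30.9 in DMSO.

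At Cebpa the strongest MED1 sites, ranks 4 and 6 in rosiglitazone, were the strongest PPARγ sites. Peak chr7:35926552-35926738 held 1217 MED1 units in rosiglitazone and 402 in DMSO (3.03, 2.37 to 3.88), and chr7:35923645-35923831 held 1171 in rosiglitazone and 472 in DMSO (2.48, 1.96 to 3.15). Peak chr7:35957742-35957928 had 796 units in rosiglitazone and 259 in DMSO (3.08). Among Cebpa peaks with at least 20 MED1 tags the highest MED1 ratio, 3.61 (2.36 to 5.59), was at chr7:35907768-35907954, and the lowest, 1.75 (0.923 to 3.28), at chr7:35915456-35915642. The 3 Cebpa peaks with fewer MED1 tags had lower ratios, 0.182, 0.438 and 0.842, and each of their intervals includes 1. At Cebpd, chr16:15890829-15891015 had 38.3 MED1 units in rosiglitazone and 59.4 in DMSO (0.644, 0.186 to 1.82).

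The PPARγ and MED1 ratios showed little relation across the members. Over the 19 members with at least 20 tags of each factor, log2 ratios for PPARγ set against those for MED1 gave a Pearson r of 0.03 and a Spearman rho of 0.14. Over 4117 other peaks chosen the same way r was 0.27 and rho 0.21. No interval was computed for these values, and whether the 19 members differ from the other peaks was not tested. These are descriptions across sites that share the same libraries, and sites are not replicates.

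**Figure D4:**
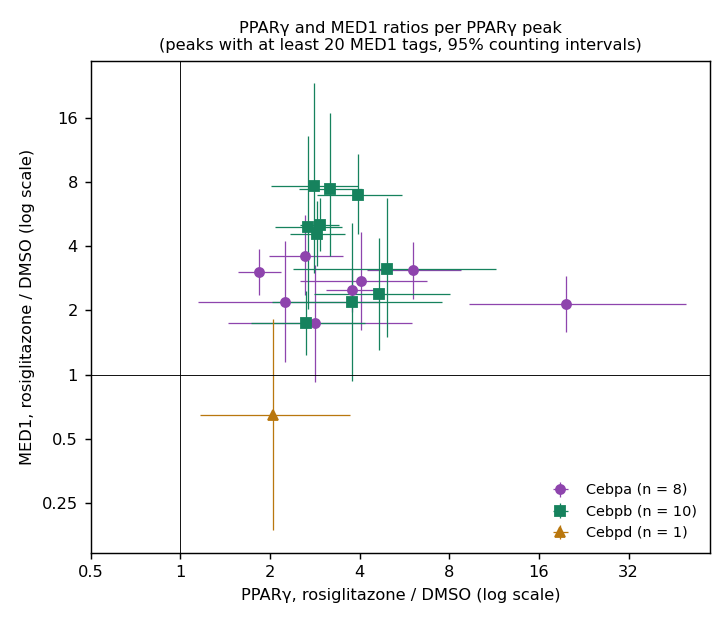
Ratio of rosiglitazone to DMSO for PPARγ (horizontal, log scale) against that for MED1 (vertical, log scale) at the 19 member PPARγ peaks with at least 20 MED1 tags, with exact 95% counting intervals. Most Cebpa and Cebpb points lie above 1 on both axes, the Cebpa site at a PPARγ ratio of 19.7 has a MED1 ratio of 2.14, and the Cebpd point lies at 2.04 and 0.644.

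CBP at Cebpa and Cebpb differed from the rest of the list by less than counting error. Over the PPARγ peaks the CBP ratio was 1.40 at Cebpa (1.09 to 1.80) and 1.45 at Cebpb (1.14 to 1.85), against 1.38 over the other peaks. Set against those other peaks, Cebpa was 1.02 times as high (0.787 to 1.30) and Cebpb 1.05 times (0.826 to 1.34). At Cebpd 11 tags in rosiglitazone and 7 in DMSO gave 4.31 (1.53 to 13.1), which was 3.13 times the ratio of the other peaks (1.11 to 9.51). This value rested on few tags, being 11.0 without the peak with most tags and 1.89 over the C/EBPα peaks (0.792 to 4.33). A CBP ratio at least 2-fold higher was found at 12 of 34 members, against 23.6% of all peaks, and at least 2-fold lower at 4, against 25.1%. The library test called 0 members in either direction, against 0.422% of the list. CBP tags per member peak had a median of 10.0, both libraries together, and differences at single peaks were mostly not detectable at this depth.

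At a Cebpa site singled out after its values were seen, the CBP interval excluded 1 and those of PPARγ and MED1 did not. At the C/EBPα peak chr7:35915993-35916223 CBP held 91.0 units in rosiglitazone and 26.5 in DMSO, a ratio of 3.43 (1.50 to 8.02). PPARγ held 42.4 units there in rosiglitazone and 39.6 in DMSO, and MED1 61.2 in rosiglitazone and 59.4 in DMSO. The ratio of PPARγ was 1.07 (0.703 to 1.64) and that of MED1 1.03 (0.385 to 2.52). C/EBPα had 34.4 units in rosiglitazone and 15.5 in DMSO (2.22, 0.945 to 6.05), the highest C/EBPα ratio among well-covered Cebpa peaks. Close by, the PPARγ peak chr7:35915456-35915642 had a CBP ratio of 11.0 (2.19 to 106), from 8 tags in rosiglitazone and 2 in DMSO. There the PPARγ ratio was 2.84 (1.44 to 5.99). Over the PPARγ peaks the CBP interval lay above 1 at 5 of 34 members, against 6.40% of the list.

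C/EBPα occupancy at its own family's loci was slightly lower with rosiglitazone at Cebpa and Cebpb. Summed over C/EBPα peaks, Cebpa held 317 units in rosiglitazone and 395 in DMSO, a ratio of 0.802 (0.660 to 0.978). Cebpb held 996 units in rosiglitazone and 1126 in DMSO, a ratio of 0.884 (0.790 to 0.991). Cebpd held 50.9 units in rosiglitazone and 41.9 in DMSO, a ratio of 1.21 (0.687 to 2.22). The other C/EBPα peaks had a ratio of 1.01, and the 3 loci together stood at 0.861 times that ratio (0.782 to 0.948). In the highest 10% by score it was 0.828 times (0.738 to 0.930). The Cebpb direction depends on the weighting, since the mean of log2 ratios over its 19 peaks corresponds to a ratio of 1.07.

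No single C/EBPα peak of the family passed the library test in either direction, against 2.90% of the list. At least 2-fold higher C/EBPα was found at 5 of 31 members, against 15.9% of all C/EBPα peaks, and at least 2-fold lower at 3, against 9.25%. Both shares are near those of the list. Before adjustment, the interval of the ratio lay above 1 at 2 members and below 1 at 5, and it held 1 at 24. Of the whole list, 7.95% of the C/EBPα peaks had an interval above 1 and 6.23% had one below.

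The C/EBPα peaks that coincided with PPARγ peaks had a C/EBPα ratio of 0.825 (0.738 to 0.923) over 18 peaks, and those that did not had 1.02 (0.842 to 1.23) over 13. The shared ratio was 0.811 times the unshared, with an interval of 0.649 to 1.01 that includes 1. PPARγ peaks of the loci with and without a C/EBPα peak had PPARγ ratios of 2.72 (2.53 to 2.92) and 2.94 (2.65 to 3.26), and MED1 ratios of 2.84 (2.57 to 3.15) and 3.10 (2.64 to 3.63). With and without a C/EBPα peak the difference of the PPARγ ratios was within counting error, 0.925 times (0.813 to 1.05), as was that of MED1, 0.918 times (0.758 to 1.11). The C/EBPα ratios at these PPARγ peaks differed beyond counting error, 0.813 (0.718 to 0.922) with a C/EBPα peak and 1.34 (0.868 to 2.11) without. The first was 0.607 times the second (0.378 to 0.956). The second rested on 72 tags in rosiglitazone and 31 in DMSO. Of these, 15 and 0 came from 1 site, chr7:35954368-35954554. The difference was not recomputed without that site, so it may rest on it.

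The strongest C/EBPα peak of the family was chr2:167585524-167585754 in the Cebpb window, at rank 71 of the C/EBPα list, with 253 units in rosiglitazone and 269 in DMSO (0.941, 0.747 to 1.19). PPARγ held 82.3 units at this peak in rosiglitazone and 16.7 in DMSO (4.93, 2.99 to 8.53). At rank 115, chr2:167527675-167527905 overlaps the strongest PPARγ peak. C/EBPα held 206 units there in rosiglitazone and 272 in DMSO (0.760, 0.597 to 0.968), while PPARγ had 585 in rosiglitazone and 196 in DMSO and MED1 had 1263 in rosiglitazone and 283 in DMSO. Peak chr2:167513253-167513483 had 67.5 units in rosiglitazone and 108 in DMSO (0.624, 0.415 to 0.940), and chr2:167515598-167515828, with no PPARγ peak, had a ratio of 0.563 (0.359 to 0.883) from 42 tags in rosiglitazone and 43 in DMSO. Peak chr2:167579489-167579719 had 91.7 units in rosiglitazone and 102 in DMSO.

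The C/EBPα ratio was above 1 at 8 of the 19 Cebpb peaks and below 1 at 11. Its interval lay above 1 at 2 of the 19, against 7.95% of the list, and below 1 at 4, against 6.23%. Among Cebpb peaks with at least 20 C/EBPα tags the highest ratio, 3.17 (1.08 to 12.7), was at chr2:167521916-167522146, from 22 tags in rosiglitazone and 4 in DMSO. This is also the site of the MED1 ratio of 6.93 above. The lowest, 0.361 (0.146 to 0.845), was at chr2:167590764-167590994, from 10 tags in rosiglitazone and 16 in DMSO. That peak overlaps the site with the lowest MED1 ratio of the well-covered Cebpb peaks.

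At Cebpa the 4 strongest C/EBPα peaks held 70.0 units in rosiglitazone and 57.4 in DMSO at chr7:35957661-35957891, 54.8 and 79.5 at chr7:35923640-35923870, 49.7 and 83.9 at chr7:35904000-35904230, and 43.3 and 64.0 at chr7:35942415-35942645, with rosiglitazone given before DMSO in each. Only the interval of chr7:35904000-35904230, a ratio of 0.592 (0.369 to 0.951), excludes 1. The lowest ratio was 0.475 (0.217 to 1.02) at chr7:35926488-35926718. At Cebpd the 3 C/EBPα peaks held 22.9 units in rosiglitazone and 26.5 in DMSO at chr16:15854476-15854706, 14.0 and 6.62 at chr16:15863320-15863550, and 14.0 and 8.83 at chr16:15890746-15890976. None of these 3 differed beyond counting error.

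PPARγ peaks continued just beyond the upper edges of the Cebpa and Cebpb windows. Just inside the Cebpa window, 0.196 kb from its lower edge, a PPARγ peak held 27.4 units in rosiglitazone and 16.7 in DMSO. Just outside, 0.936 kb beyond the upper edge, a PPARγ peak held 86.5 units in rosiglitazone and 11.4 in DMSO. Beyond the upper edge of the Cebpb window, 2.02 kb outside, a PPARγ peak had 154 units in rosiglitazone and 43.1 in DMSO, against 69.8 and 26.4 at the last peak inside. The nearest PPARγ peaks outside the lower edges were 22.0 kb away at Cebpa and 6.38 kb away at Cebpb. At Cebpd the PPARγ peaks nearest the lower edge were 33.9 kb inside and 192 kb outside. Those nearest its upper edge were 11.3 kb inside and 8.49 kb outside.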

How the data were processed

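The PPARγ and C/EBPα peak lists were used as deposited. The build was mm9 and the tools were Bowtie, HOMER, edgeR and FastQC, per the submitters' processing notes; no version or setting is given in these sources. Each list holds 8 columns of signal, normalised by the authors per library. The peak score and the focus ratio, a fraction, are 1 value per peak as deposited by the authors; the score ranked peaks and the fraction was not analysed. Within 0.02 steps, 100% of the deposited signal above 0 was a whole number of steps of a constant size per column, and this number was taken as tags. The MED1 column headed BRL was taken as rosiglitazone. Headers of the PPARγ columns give no replicate, and a column may stand for 1 labelled sample or for both.

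Peaks are 186 bp wide in the PPARγ list and 230 bp in the C/EBPα list. Ratios with exact intervals, counts past 2-fold with a pseudocount of 1, and an exact binomial test of tags with Benjamini-Hochberg adjustment over each whole list were computed with Python 3.11.15, scipy 1.17.1 and pandas 2.3.3. The fold scale understates changes of low peaks. The binomial test, the sums of PPARγ, MED1 and CBP over C/EBPα peaks and the comparison within the highest 10% were added after seeing the data. Since replicates are lacking, no count model was fitted, and the binomial test, which compares libraries and not treatments, stands in for it. A share of 0 tags was set against 3 tags. Named peaks were the 5 highest by score per list and locus, and the highest and lowest PPARγ, MED1 and C/EBPα ratios per locus among peaks with at least 20 tags, 36 in all; peaks at the window edges and other factors' values at named peaks are given besides. The members, windows and lists were chosen with earlier results of these data known.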

Additional observations from a re-analysis of the deposited data

How the results depend on the processing

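No paired analysis was possible because each factor has 1 column per treatment and the columns carry no replicate number. Of 115 recomputed summary values 83 stayed within the counting interval of the reported ratio or within 1.5 times the reported count, and of 76 values of named peaks 65 did. Some of the 83 could not change. All PPARγ peaks at Cebpa and Cebpd scored at or above the list median, and all 34 members had at least 20 PPARγ tags. Among the values that stayed, 3 ratios whose reported interval includes 1 changed to the other side of 1. They are MED1 at Cebpd, 1.52 over the C/EBPα peaks, C/EBPα at Cebpd, 0.865 with scores at or above the list median, and PPARγ at chr16:15928592-15928778, 0.810 when divided by the ratio of the whole list. A ratio whose reported interval excludes 1 also changed sides, namely C/EBPα at Cebpb, 1.07 as a mean of log2 ratios per peak; the cause was not tested. The same averaging gave a PPARγ ratio of 2.32 at Cebpb and MED1 ratios of 1.57 at Cebpa and 2.08 at Cebpb. Divided by the ratio of the whole list, PPARγ stood at 1.85 for Cebpa, 1.86 for Cebpb and 1.11 for Cebpd, MED1 at 1.55 for Cebpa and 2.30 for Cebpb, and CBP at 1.02 for Cebpa and 1.05 for Cebpb. Without the peak with most tags the PPARγ ratio at Cebpa was 3.42, and over the C/EBPα peaks PPARγ was 2.52 at Cebpa and 2.57 at Cebpd and MED1 3.05 at Cebpb. With scores at or above the list median, 1 C/EBPα peak was left at Cebpd.

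Members at least 2-fold lower for PPARγ were 0 of 34 with a pseudocount of 5. The library test called 0 of 34 lower, against 1.57% of the list. For MED1, 0 of 19 members with at least 20 tags were lower, against 8.14% of such peaks. The library test of MED1 called 0 of 34 lower, against 0.304% of the list. For CBP, 1 of 9 members was higher with at least 20 tags, against 22.7% of such peaks, and 0 of 9 lower, against 5.70%. The library test of CBP called 0 of 34 in either direction, against 0.422% of the list. With a pseudocount of 5, 1 of 34 was lower. For C/EBPα, 3 of 23 members were higher with at least 20 tags, against 13.8% of such peaks. The library test of C/EBPα called 0 of 31 in either direction, against 2.90% of the list. With a pseudocount of 5, 3 of 31 were higher and 1 lower. At 1.5-fold, 9 of 31 were higher and 8 lower. List shares are not given for the pseudocount of 5 or the 1.5-fold cut, so those counts cannot be set against the list. The causes of these changes in the counts were not tested, beyond that the 20-tag minimum and the library test leave fewer weak peaks to call. Median tags per member PPARγ peak over both libraries were 62.5 for PPARγ, 26.0 for MED1, 13.5 for C/EBPα and 10.0 for CBP, which limits what single peaks can show.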
